A study of Mus musculus with 2 samples.

Results

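A set of 10 genes of the bone morphogenetic protein (BMP) and transforming growth factor beta (TGF-β) pathways was followed through the esophagus of mouse embryos labelled p63-KO and of littermate controls. They were chosen by name and not by their values, out of 32285 genes in the count tables: the ligands Tgfb1, Tgfb2, Tgfb3, Bmp4 and Bmp7, the inhibitory Smads Smad6 and Smad7, and the target genes Id1, Id2 and Id3. The p63-KO library came from esophageal tissue of C57BL/6 embryos at E18.5 with the genotype p63-CreER/p63-CreER, in which both copies of Trp63 carry the CreER allele. The wild-type library came from embryos of the same strain and age whose genotype is given as p63-CreER, so the controls carry the allele as well. No inducing drug is named for either group, and the number of embryos behind each library is not given in the sources used here. In both groups the muscle was pulled away and the epithelium was treated with dispase and trypsin before the cells were captured in droplets and their transcripts counted at the 3' end. There was 1 library per group, so no difference below has a replicate check and none was tested. Intervals in brackets are exact 95% intervals, Poisson for a level and binomial for a fold, and they cover counting error only.

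TGF-β and BMP ligands are secreted dimers that bind paired serine/threonine kinase receptors, which phosphorylate receptor Smads: Smad2 and Smad3 after TGF-β, and Smad1, Smad5 and Smad9 after BMP. Smad6 and Smad7 are induced by the same signals and feed back on them, Smad6 mainly on the BMP branch and Smad7 on both. Id proteins bind basic helix-loop-helix factors and keep them off DNA, and their genes are textbook targets of BMP. In the developing foregut, BMP activity and its antagonists take part in separating the esophagus from the trachea and in the change from a simple to a stratified epithelium.

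Smad6 and Id2 were among the members lowest in 1 epithelial cell type of the p63-KO esophagus, described further on, and their promoters are shown for that reason. Promoters of 6 of the 10 members were found in the RefSeq table for GRCm38.p6. They run from 250 bases before to 50 after the annotated start and were searched for a palindromic Smad motif, GTCTAGAC, and a GC-rich Smad motif, GGCGCC, each of which reads the same on both strands, and which do not overlap each other. Capitals mark the match in the promoters of Smad6 (chr9:64022010-64022309, reverse strand) and Id2 (chr12:25096043-25096342, reverse strand).
Smad6: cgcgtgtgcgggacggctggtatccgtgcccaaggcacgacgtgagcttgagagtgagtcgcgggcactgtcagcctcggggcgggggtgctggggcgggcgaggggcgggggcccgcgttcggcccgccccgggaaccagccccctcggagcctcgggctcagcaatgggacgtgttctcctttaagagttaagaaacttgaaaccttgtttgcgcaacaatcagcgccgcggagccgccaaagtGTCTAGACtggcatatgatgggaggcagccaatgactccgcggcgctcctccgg
Id2: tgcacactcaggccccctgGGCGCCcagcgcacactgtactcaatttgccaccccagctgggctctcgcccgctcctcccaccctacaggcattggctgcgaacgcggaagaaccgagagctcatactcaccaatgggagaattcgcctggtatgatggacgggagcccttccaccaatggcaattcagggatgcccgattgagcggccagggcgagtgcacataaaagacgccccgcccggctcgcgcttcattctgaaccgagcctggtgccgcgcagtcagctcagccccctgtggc
The match in Smad6 begins 4 bases before the start site and spans it, and 0.213% of 32851 RefSeq promoters of this length hold GTCTAGAC. The match in Id2 begins 231 bases before the start site, and GGCGCC is common, in 11.9% of promoters. Neither motif was found in this window of Tgfb1, Tgfb2, Bmp4 or Id3. A match is a description of letters and does not show binding.

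After filters on cells and removal of doublets, 2375 p63-KO cells and 5519 wild-type cells remained, with a median of 19307 and 10924 UMIs (unique molecular identifiers, 1 per captured transcript) per cell. Trp63 had 118 CPM (its UMIs scaled to a common total) in p63-KO epithelial-like cells and 303 CPM in wild-type ones. Which part of the gene the allele removes is not given, so this count does not check the loss of the protein, but the basal keratin gene Krt5 had 0.236 CPM in p63-KO and 766 CPM in wild-type epithelial-like cells. By their markers, 1676 p63-KO cells and 5332 wild-type cells were epithelial-like. The p63-KO library also held 518 fibroblast-like, 73 smooth muscle or pericyte-like, 72 endothelial-like and 18 immune-like cells, against 10 fibroblast-like and 1 endothelial-like cell in the wild-type library. Both libraries held cells with Y-linked UMIs and cells with Xist UMIs, hence at least 1 male and 1 female embryo each. The libraries shared 8 cell barcodes.

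In p63-KO epithelial-like cells the balance of the ligand genes differed from that in wild-type cells: Tgfb2 and Tgfb3 were higher and Bmp7 was lower, and the inhibitor Smad7 was higher. The Id genes among the members, Id1, Id2 and Id3, which report on BMP activity in many tissues, differed by less than 1.5-fold. Genes with 5 CPM or more in 1 of the groups were taken as measured, and a gene was counted as higher or lower if the log2 ratio of CPM, each with 1 added, was at least 1 in size. Of the 10 members 9 were measured, of which 3 were higher and 1 was lower. Tgfb2 and Tgfb3 reached 5 CPM in p63-KO cells alone, so the count of higher members is partly set by this filter. Over all 11779 measured genes, 14.1% were higher and 7.85% lower. The median log2 ratio was 0.40 for the measured members and -0.02 for all genes. The 2 epithelia were not made of the same cell types. No p63-KO subcluster was named basal-like, while wild type held 2304 basal-like cells. No wild-type subcluster was named ionocyte-like, neuroendocrine-like or mucous-like. Ratios over all epithelial-like cells thus do not compare like cells.

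**Figure D1:**
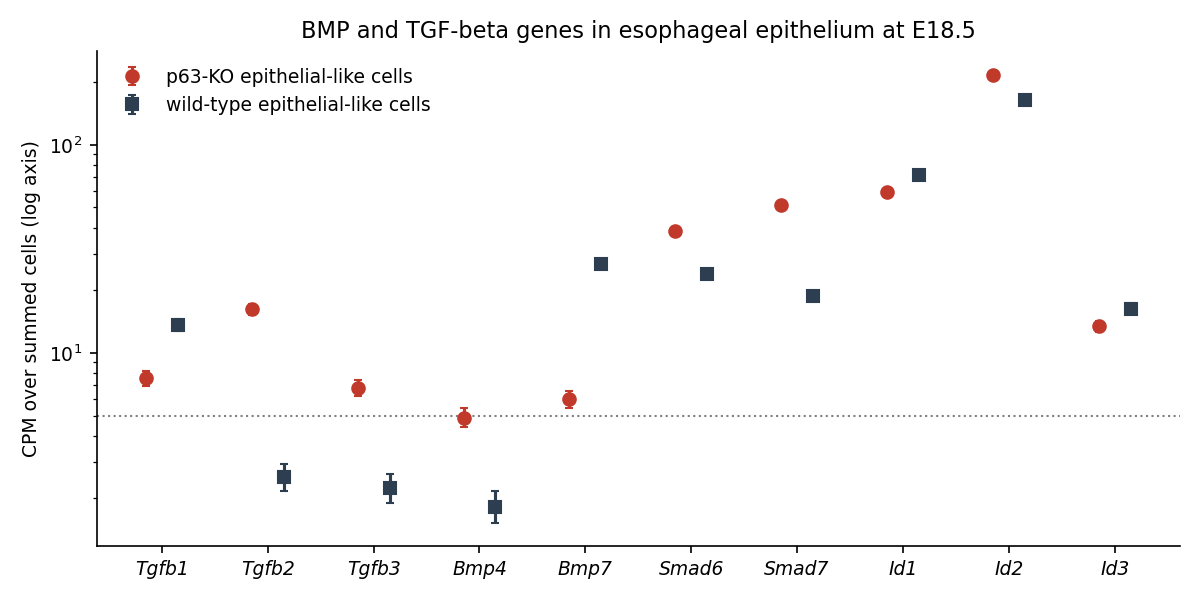
Level of each member in p63-KO (red circles) and wild-type (dark squares) epithelial-like cells, in CPM over the summed cells on a log axis, with exact 95% Poisson intervals where they are larger than the symbol. The dotted line is at 5 CPM, the level from which a gene was called measured. Tgfb2, at 16.2 against 2.53 CPM, and Bmp7, at 6.00 against 26.7 CPM, lie farthest apart.

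Tgfb2 (ENSMUSG00000039239, chr1:186622792-186705989, mm10) encodes a TGF-β isoform needed in the mouse for the morphogenesis of many organs. It had 16.2 CPM (15.3 to 17.2) in p63-KO and 2.53 CPM in wild-type epithelial-like cells, 6.41-fold higher (5.46 to 7.57). Tgfb3 (ENSMUSG00000021253, chr12:86056745-86079041), best known for its part in the fusion of the palate, had 6.76 CPM in p63-KO and 2.23 CPM in wild-type cells, 3.03-fold higher (2.52 to 3.66). The 2 differences did not have the same source among cell types. Without the ciliated-like, neuroendocrine-like and ionocyte-like subclusters the log2 ratio of Tgfb2 was 2.21, against 2.29 with them, while that of Tgfb3 was 0.19, against 1.26 with them. Tgfb1 (ENSMUSG00000002603, chr7:25687002-25705077), the most widely expressed isoform, had 7.54 CPM in p63-KO and 13.6 CPM in wild-type cells, a log2 ratio of -0.78 that did not reach the threshold. Tgfb2 and Tgfb3 share exon bases with transcripts on the opposite strand, Gm29491 and Gm48008, which themselves had under 1 CPM in both libraries. Whether the counting used strand is not given in the sources used here.

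Bmp7 (ENSMUSG00000008999, chr2:172868012-172940321), a ligand of epithelia and kidney, had 6.00 CPM (5.45 to 6.59) in p63-KO and 26.7 CPM in wild-type epithelial-like cells, 4.45-fold lower (4.01 to 4.96). The p63-KO library counted 432 Bmp7 UMIs in its epithelial-like cells and the wild-type library 1830, although the totals of all UMIs in these cells were close, at 71991948 in p63-KO and 68508646 in wild-type cells. Bmp4 (ENSMUSG00000021835, chr14:46383520-46390669), the ligand of the foregut mesenchyme, stayed below the level of 5 CPM in both, at 4.89 CPM in p63-KO and 1.82 CPM in wild-type cells, and was not counted. Its ratio was 2.68-fold (2.18 to 3.31). Like that of Tgfb3, it rested on a few cell types: without the ciliated-like, neuroendocrine-like and ionocyte-like subclusters its log2 ratio was 0.38. An exon of Bmp4 overlaps Gm15217 on the opposite strand, which had 2.11 CPM in p63-KO and 0.744 CPM in wild-type cells.

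The inhibitory Smads were both higher in p63-KO cells, with Smad7 past the threshold and Smad6 below it. Smad7 (ENSMUSG00000025880), which blocks receptors of both branches, had 51.6 CPM in p63-KO and 18.8 CPM in wild-type epithelial-like cells, 2.75-fold higher (2.58 to 2.93). Smad6 (ENSMUSG00000036867, chr9:63953076-64022059) had 38.7 CPM in p63-KO and 24.0 CPM in wild-type cells, a log2 ratio of 0.67.

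Among the targets, Id2 (ENSMUSG00000020644, chr12:25093799-25097140) had 217 CPM in p63-KO and 164 CPM in wild-type epithelial-like cells, a log2 ratio of 0.40. Id1 (ENSMUSG00000042745, chr2:152736251-152737410) had 59.2 CPM in p63-KO and 71.7 CPM in wild-type cells, and Id3 (ENSMUSG00000007872, chr4:136143497-136145755) 13.4 CPM in p63-KO and 16.3 CPM in wild-type cells. None of Id1, Id2 and Id3 reached the threshold, unlike Id4, which is not a member and is given with the wider list. The sign of the log2 ratios of Id1 and Id3 depended on the cells taken. Among cells with Xist UMIs and no Y-linked UMIs, Id3 had 10.8 CPM in 908 p63-KO cells and 18.1 CPM in 3326 wild-type cells. Among cells with Y-linked UMIs and no Xist UMIs it had 21.3 CPM in 394 p63-KO cells and 14.1 CPM in 1449 wild-type cells. The log2 ratio of Id3 was thus -0.70 in Xist cells and 0.56 in Y-linked cells. Those of Id1 were -0.54 in Xist cells and 0.14 in Y-linked cells, so that for neither gene does the sign hold in both. For Id1 the fold in Y-linked cells, 1.10 (0.9996 to 1.21), has an interval that includes no difference.

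The 4 members counted above kept their calls in both of these groups of cells. Cells with both kinds of UMIs or with neither were left out of them. In p63-KO the Xist and Y-linked groups held 908 and 394 of the 1676 epithelial-like cells, with 36157638 and 9964674 of their 71991948 UMIs. Tgfb2, Tgfb3 and Smad7 were higher and Bmp7 lower in Xist cells, where 14.4% of all measured genes were higher and 7.16% lower in p63-KO. The same 4 were called in Y-linked cells, with Bmp4 as a further higher member at 7.02 CPM in p63-KO and 1.51 CPM in wild-type cells, where 17.5% of all genes were higher and 9.06% lower. Within 1 library, Y-linked cells differed from Xist cells by less than the threshold for all 10 members measured in p63-KO, where 0.874% of genes were higher and 1.15% lower, and for the 7 measured in wild type, where 0.184% were higher and 0.95% lower.

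Cycling-like cells were found in both libraries, 286 in p63-KO and 1289 in wild type, with a median of 68781.5 UMIs per cell in p63-KO and 12203 in wild type. When both libraries were clustered together they did not share clusters: those led by cell cycle genes in wild type, clusters 7, 9, 11 and 23, held 0 p63-KO cells. The neutrophil genes S100a8, S100a9 and Ngp stood among the leading genes of the p63-KO cycling-like cells beside cell cycle genes. Tgfb2 had 14.7 CPM in p63-KO and 2.48 CPM in wild-type cycling-like cells, 5.91-fold higher (4.26 to 8.4), and Smad7 63.7 CPM in p63-KO and 27.0 CPM in wild type. Bmp7 was 7.63-fold lower (6.15 to 9.56), at 4.61 CPM in p63-KO and 35.2 CPM in wild type. Tgfb1, at 9.22 CPM in p63-KO and 19.7 CPM in wild type, and Id3, at 8.70 CPM in p63-KO and 21.7 CPM in wild type, were lower too. That made 2 members higher and 3 lower of 8 measured, beside 13.9% of all genes higher and 13.3% lower. Tgfb3 was nearly level, at 3.20 CPM in p63-KO and 3.03 CPM in wild-type cycling-like cells.

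Suprabasal-like cells were compared by subcluster, because wild-type subcluster 9 had the superficial marker Cnfn, and no suprabasal one, among its leading genes. The p63-KO suprabasal-like subcluster of 269 cells had 13.4 CPM of Tgfb2, against 0.268 to 1.92 CPM in the 4 wild-type suprabasal-like subclusters. Its Smad7 level was 48.1 CPM, against 3.75 to 14.5 CPM in the wild-type subclusters, and its Smad6 level 35.6 CPM, against 10.0 to 22.5 CPM. Bmp7 was at 1.90 CPM, below all 4 wild-type values of 3.02 to 13.3 CPM, and Id1 was at 64.9 CPM, below their 83.0 to 114 CPM. Id2 was at 271 CPM, above their 116 to 250 CPM. Id3 lay within the wild-type values, at 6.97 CPM against 1.15 to 7.48 CPM, and so did Tgfb1, at 6.65 CPM against 4.83 to 18.1 CPM. The share of all genes that lay outside the values of the 4 wild-type subclusters was not computed. Against these subclusters summed, subcluster 9 included, 3 of 8 measured members were higher and 1 lower in p63-KO. Of all 10683 genes measured there, 1270 were higher and 819 lower.

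Ciliated-like cells were few, 56 in p63-KO and 24 in wild type. Smad7 had 44.4 CPM in p63-KO and 12.3 CPM in wild-type ciliated-like cells, 3.60-fold higher. Tgfb2 had 22 UMIs, 6.65 CPM (4.17 to 10.1), in p63-KO and 0 UMIs (0 to 5.69 CPM) in wild type. These 2 intervals overlap, while the exact interval of the fold begins at 1.07. Id3 was called higher on 4 wild-type UMIs, with a fold of 2.25 (0.823 to 8.62). With it 3 of 8 measured members were higher and 0 lower, beside 12.4% of genes higher and 10.8% lower. The p63-KO ciliated-like cells also held 331 CPM of the fibroblast gene Col1a1, and the part of stromal RNA in their values was not tested.

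In the wild-type epithelium 4 of the 7 measured members differed between layers. Bmp7, Id3 and Smad7 were lower in suprabasal-like than in basal-like cells, and Id1 was higher. There were 1715 suprabasal-like, 1289 cycling-like and 2304 basal-like cells, named after keratins and other markers of each layer. Thus 1 member was higher and 3 were lower in suprabasal-like cells, beside 10.4% of 11051 genes higher and 16.4% lower. The median log2 ratio was -0.69 for the measured members and -0.31 for all genes.

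Bmp7 had 7.79 CPM in suprabasal-like and 44.0 CPM in basal-like wild-type cells, 5.64-fold lower (4.87 to 6.56). The 4 suprabasal-like subclusters held 3.02 to 13.3 CPM of it and the 3 basal-like subclusters 34.8 to 46.8 CPM. Id3 was 5.92-fold lower (4.89 to 7.22), at 4.57 CPM in suprabasal-like and 27.1 CPM in basal-like cells. Its subclusters ran from 1.15 to 7.48 CPM in suprabasal-like and from 17.5 to 58.7 CPM in basal-like cells. Subclusters were formed on the expression of these same cells, and the share of all genes whose ranges stay apart in this way was not computed. The highest Id3 level was that of subcluster 7, of 388 basal-like cells led by Zbtb16 and Tenm2. It also had the highest basal-like level of Id1, 83.1 CPM, and of Id2, 188 CPM. Smad7 had 9.64 CPM in suprabasal-like and 24.3 CPM in basal-like cells, 2.52-fold lower (2.17 to 2.92), and Smad6, with 16.9 CPM in suprabasal-like and 27.7 CPM in basal-like cells, had a log2 ratio of -0.69.

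Id1 ran the other way. It had 104 CPM in suprabasal-like and 50.4 CPM in basal-like cells, 2.06-fold higher (1.92 to 2.20), a log2 ratio of 1.03, so near the threshold that it fell below it without suprabasal-like subcluster 2, at 0.94, and at 0.95 without basal-like subcluster 3, which was led by Mcm genes of DNA replication. The lowest suprabasal-like value, 83.0 CPM in subcluster 9, met the highest basal-like one in subcluster 7. Id2 had 191 CPM in suprabasal-like and 146 CPM in basal-like cells, a log2 ratio of 0.38. The highest value of Tgfb1 was 32.1 CPM in cycling-like subcluster 8, led by Rrm2 and Clspn, and its next 18.1 CPM in suprabasal-like subcluster 9. Its log2 ratio, suprabasal-like over basal-like, was -0.62, and without subcluster 9 it was -1.14, past the threshold. Tgfb2, Tgfb3 and Bmp4 were below 5 CPM in both layers. Between cycling-like and basal-like cells no member of the 7 measured was higher or lower, where 3.73% of genes were higher and 0.195% lower. The 2304 basal-like cells included the 725 of subcluster 3, led by genes of DNA replication, and this comparison was not repeated without them.

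**Figure D2:**
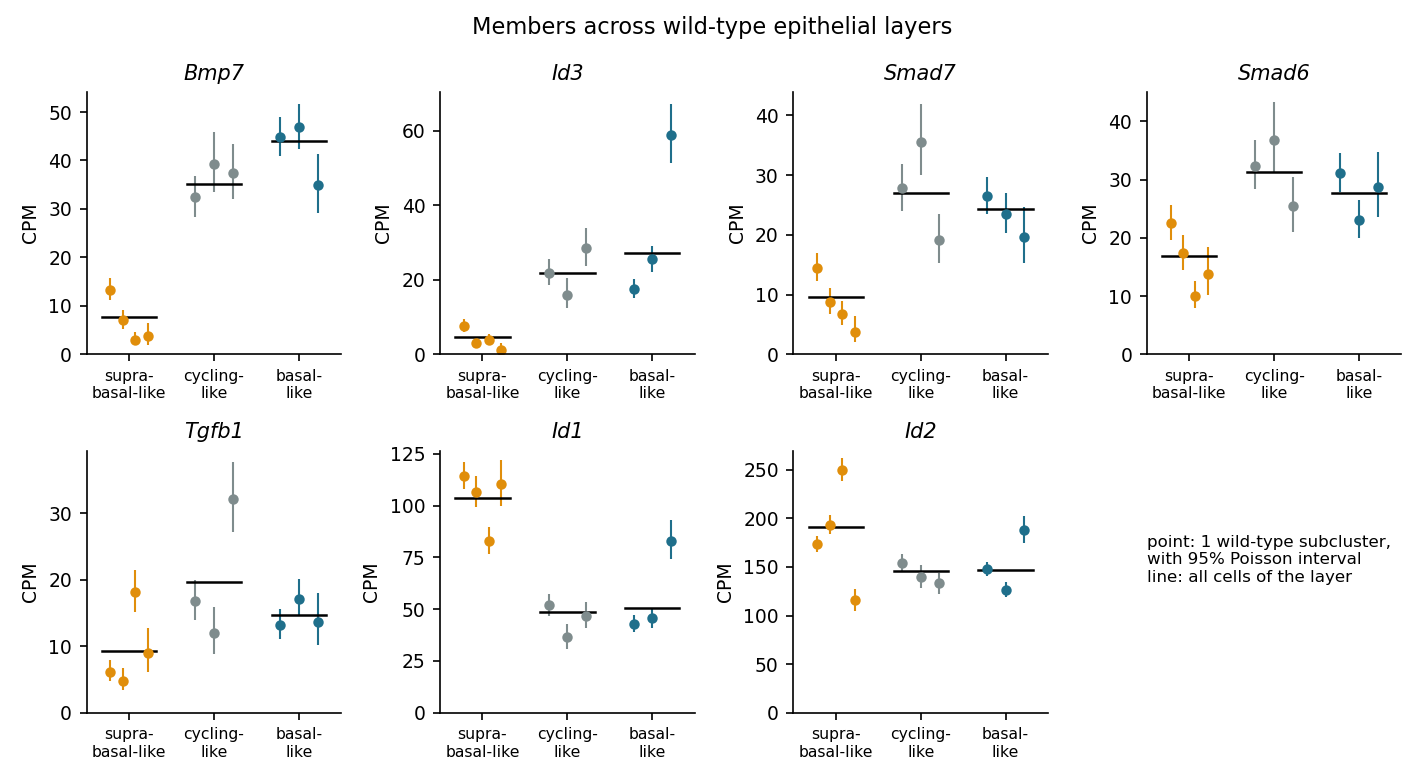
Levels of the 7 members measured in wild-type layers, in CPM. Each point is 1 subcluster of at least 30 cells with its exact 95% Poisson interval, and each black line the level over all cells of the layer. Bmp7 and Id3 are lower in suprabasal-like than in basal-like cells, and Id1 is higher in suprabasal-like cells, at 104 against 50.4 CPM.

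Within the p63-KO epithelium, 2 cell types stood apart for these genes. Ionocyte-like cells, marked by Foxi1 and Ascl3, held most of the Tgfb3 and much of the Bmp4 of the epithelium. Their 159 cells had 42.5 CPM of Tgfb3, against 3.15 CPM in all other p63-KO epithelial-like cells, 13.5-fold higher (11.2 to 16.2). Bmp4 was at 26.0 CPM in ionocyte-like and 2.75 CPM in the other cells, 9.45-fold higher (7.62 to 11.7), and Bmp7 at 19.4 CPM in ionocyte-like and 4.65 CPM in the others. With Id3, at 32.1 CPM in ionocyte-like and 11.5 CPM in the others, 4 of 10 measured members were higher and 0 lower, beside 4.91% of genes higher and 5.62% lower. Tgfb3, Bmp4 and Bmp7 reached 5 CPM in ionocyte-like cells alone, so the count of higher members is partly set by this filter. The 2 ionocyte-like subclusters were not alike: subcluster 7 had 68.2 CPM of Tgfb3 and 47.2 CPM of Bmp4, and subcluster 11 had 25.6 CPM and 12.1 CPM of the same genes.

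Neuroendocrine-like cells, marked by Chga and Syp, had the lowest levels of the targets Id1, Id2 and Id3. Their 264 cells had 5.67 CPM of Id1, against 62.1 CPM in the other p63-KO epithelial-like cells, 10.95-fold lower (7.16 to 17.7). Id2 was at 22.7 CPM in neuroendocrine-like and 228 CPM in the other cells, 10.1-fold lower (8.11 to 12.6), and Id3 at 3.51 CPM in neuroendocrine-like and 14.0 CPM in the others. Smad6, whose promoter is printed above, had 3 UMIs in neuroendocrine-like cells, 0.810 CPM, and 40.8 CPM in the others, 50.3-fold lower (17.2 to 244). Smad7 had 27.0 CPM in neuroendocrine-like and 53.0 CPM in the other cells, a log2 ratio of -0.95. Tgfb2 was higher, at 38.1 CPM in neuroendocrine-like and 15.0 CPM in the others, and the other ligands did not reach the threshold. This made 1 member higher and 4 lower of 9 measured, beside 24.4% of genes higher and 17.8% lower. Both neuroendocrine-like subclusters were low for Id1, at 4.82 CPM in subcluster 4 and 8.78 CPM in subcluster 9. After each cell was thinned to 2000 UMIs, an Id2 UMI was found in 3.09% of neuroendocrine-like and 29.7% of all p63-KO epithelial-like cells, and before thinning in 15.2% of neuroendocrine-like and 76.1% of all p63-KO epithelial-like cells.

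Subcluster 8 of the p63-KO epithelium, 82 cells led by Cnpy1 and Cbfa2t3 and named after no cell type, had the highest levels of any p63-KO epithelial subcluster: of Tgfb2, 107 CPM, of Id1, 99.1 CPM, and of Id3, 109 CPM. Its level of the fibroblast gene Col1a1 was 12.5 CPM and that of the endothelial gene Pecam1 0.693 CPM, against 11799 CPM of Col1a1 in fibroblast-like and 1230 CPM of Pecam1 in endothelial-like cells. Cdh5, another endothelial gene, was at 0 in it. Without this subcluster the log2 ratio of Tgfb2 between p63-KO and wild-type epithelium was 2.12, and that of Id3 was -0.47. Among suprabasal-like, cycling-like, mucous-like and subcluster 3 cells, Id3 ran from 6.97 to 11.7 CPM and Tgfb2 from 8.40 to 21.6 CPM. The mucous-like subclusters differed in Id1, at 72.6 CPM in subcluster 5 and 30.4 CPM in subcluster 6.

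**Figure D3:**
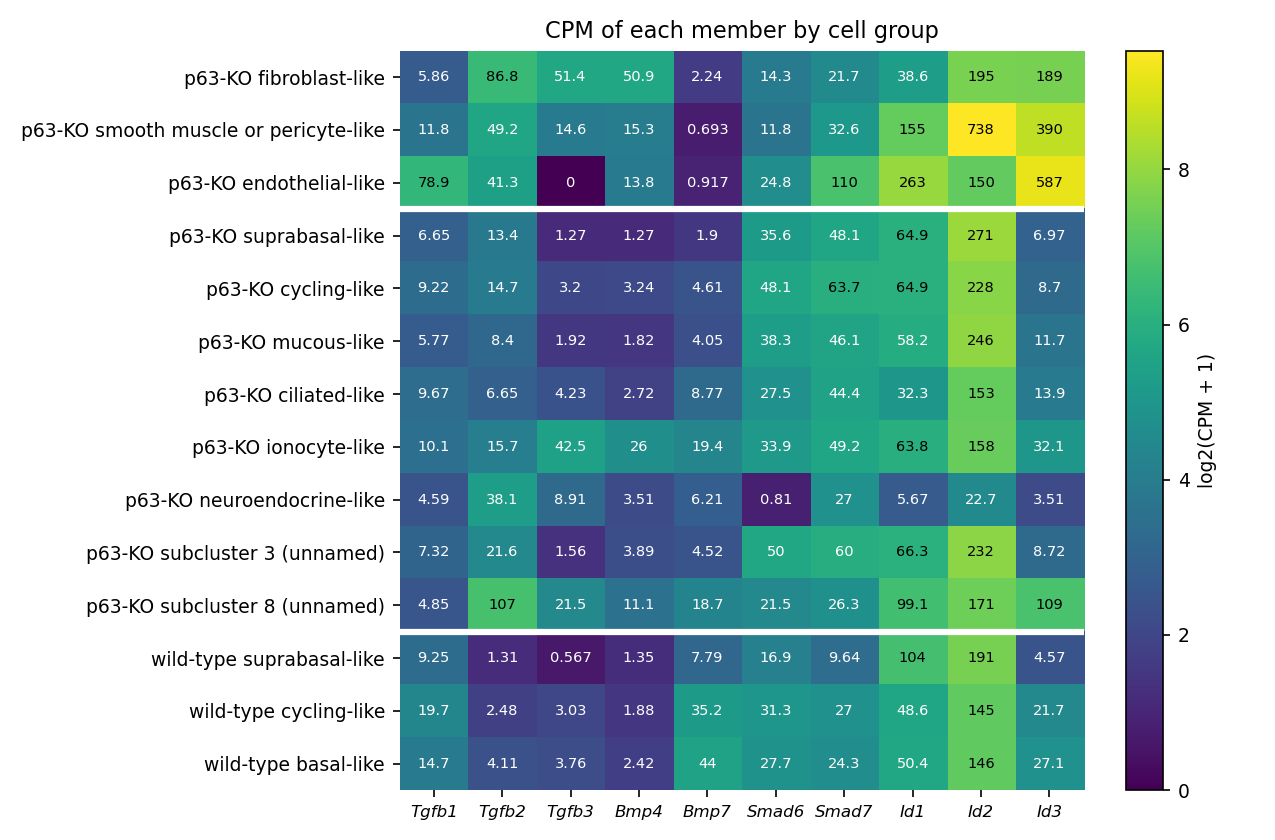
Level of each member (columns) in cell groups of the p63-KO library, above, and in wild-type layers, below. Numbers are CPM over the summed cells, and colour is log2(CPM + 1). The 3 stromal and vascular groups at the top are highest for Id3, at 189 to 587 CPM, and the neuroendocrine-like row is darkest for Smad6, at 0.810 CPM.

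Stromal and vascular cells of the p63-KO library were set against its epithelial-like cells, since the wild-type library had too few of them. Fibroblast-like cells had more Tgfb2, Tgfb3, Bmp4 and Id3, and less Bmp7, Smad6 and Smad7. This was 4 members higher and 3 lower of 10 measured, beside 19.3% of 12670 genes higher and 20.3% lower. Bmp4 had 50.9 CPM in fibroblast-like and 4.89 CPM in epithelial-like cells, 10.4-fold higher (8.88 to 12.2). Tgfb3 was at 51.4 CPM in fibroblast-like and 6.76 CPM in epithelial-like cells, and Tgfb2 at 86.8 CPM in fibroblast-like and 16.2 CPM in epithelial-like cells. Smad6 had 14.3 CPM in fibroblast-like and 38.7 CPM in epithelial-like cells, 2.71-fold lower (2.17 to 3.41).

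Id3 set the compartments apart more than any other member. It had 189 CPM in fibroblast-like and 13.4 CPM in epithelial-like cells, 14.1-fold higher (12.9 to 15.3). Smooth muscle or pericyte-like cells had 390 CPM of Id3 and endothelial-like cells 587 CPM (542 to 634), 43.7-fold higher than epithelial-like cells. As a result, epithelial-like cells, which held 89.3% of all UMIs of the library, held 29.5% of its Id3 UMIs. Fibroblast-like cells held 33.4%, endothelial-like cells 19.6% and smooth muscle or pericyte-like cells 17.2%. Id1 and Id2 were less unequal: Id1 had 38.6 CPM in fibroblast-like, 155 CPM in smooth muscle or pericyte-like, 263 CPM in endothelial-like and 59.2 CPM in epithelial-like cells, and Id2 was highest in smooth muscle or pericyte-like cells, at 738 CPM.

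Endothelial-like cells were also high for Tgfb1, at 78.9 CPM against 7.54 CPM in epithelial-like cells, and for Smad7, at 110 CPM against 51.6 CPM. Tgfb3 had 0 UMIs in them (0 to 3.38 CPM), against 6.76 CPM in epithelial-like cells. Of 10 measured members 6 were higher and 2 lower, beside 19.6% of genes higher and 22.4% lower. In smooth muscle or pericyte-like cells 6 were higher and 2 lower, beside 18.8% and 19.2%. The 18 immune-like cells had the highest Tgfb1, 171 CPM from 46 UMIs.

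RNA from lysed stromal cells can enter droplets that hold epithelial cells, and the fibroblast markers give its scale. Of 8 fibroblast markers 7 stood in p63-KO epithelial-like cells at 0.235% to 0.468% of their fibroblast-like level, and Dcn at 8.14%. The epithelial levels of Id3, Bmp4, Tgfb3 and Tgfb2 were 7.11%, 9.61%, 13.2% and 18.7% of their fibroblast-like levels. All 4 were above the 7 markers, and Id3 was below Dcn. The part of stromal RNA in the epithelial levels was not tested. The 8 markers together came to 566 CPM in p63-KO and 38.2 CPM in wild-type epithelial-like cells, with none at 0, and 415 of the 566 CPM were Dcn. In the other direction, the 9 epithelial markers stood in fibroblast-like cells at 1.33% to 2.83% of their epithelial level, while Smad6, Smad7 and Bmp7 were 2.38-fold to 2.71-fold below their epithelial levels. Markers of other cells differed between the 2 libraries too, where genotype and library cannot be told apart. Mesothelial markers summed to 530 CPM in p63-KO and 77.9 CPM in wild-type epithelial-like cells, of which Msln made 521 CPM in p63-KO and 64.4 CPM in wild type. Neural or glial markers summed to 47.6 CPM in p63-KO and 5.62 CPM in wild type. Smooth muscle or pericyte markers summed to 31.7 CPM in p63-KO and 2.55 CPM in wild type, immune markers to 13.9 CPM in p63-KO and 5.01 CPM in wild type, and endothelial markers to 12.1 CPM in p63-KO and 6.90 CPM in wild type. Their part in the members' values was not tested. A cluster of 761 p63-KO cells had Msln among its leading genes, but it held all 9 epithelial markers. Msln was also among the leading genes of wild-type suprabasal-like subcluster 9. Leaving this cluster out thus removes 761 of the 1676 p63-KO epithelial-like cells and cannot show the part of other cells. Without the cluster Tgfb3 had a log2 ratio of 1.97, p63-KO over wild type, Bmp7 one of -1.57, and Bmp4 became a further higher member.

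The rest of the pathway was described by a list of 67 further genes, of which 66 were found in the table and 43 were measured in the epithelium. In p63-KO epithelial-like cells 10 of them were higher and 5 lower than in wild-type ones, beside 14.1% of all genes higher and 7.85% lower. Their median log2 ratio was 0.11, against -0.02 for all genes. By role, 3 of 5 measured ligands, 2 of 13 receptors and co-receptors, 1 of 10 Smads and regulators, 0 of 5 antagonists, 2 of 6 latency genes and 2 of 4 targets were higher, and 2 receptors, 2 antagonists and 1 target were lower.

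Thbs1, whose product thrombospondin can release TGF-β from its latent form, had 137 CPM in p63-KO and 0.774 CPM in wild-type epithelial-like cells, 178-fold higher (136 to 237). In the p63-KO epithelium it was highest in the unnamed subcluster 3, at 241 CPM, and among named types it ran from 24.8 CPM in neuroendocrine-like to 177 CPM in ionocyte-like cells. Fibroblast-like cells had 169 CPM of it. Ltbp3, a latent TGF-β binding protein, had 39.3 CPM in p63-KO and 15.8 CPM in wild-type cells. Among the ligands, Inhbb, a subunit of activin and inhibin, had 16.6 CPM in p63-KO and 0.730 CPM in wild-type cells, 22.8-fold higher (17.2 to 30.8). Bmp8a had 8.08 CPM in p63-KO and 1.77 CPM in wild-type cells, and Bmp6, which shares exon bases with Txndc5 on the other strand, 23.8 CPM in p63-KO and 7.24 CPM in wild-type cells.

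The decoy receptor gene Bambi was 8.07-fold higher (6.73 to 9.75), at 15.4 CPM in p63-KO and 1.91 CPM in wild-type cells, and in p63-KO it was highest in the epithelium in neuroendocrine-like cells, at 133 CPM. Id4, a further Id gene, showed the same place: 21.9 CPM in p63-KO and 3.02 CPM in wild-type epithelial-like cells, and 213 CPM in p63-KO neuroendocrine-like cells, where Id1, Id2 and Id3 were lowest. Pmepa1, a TGF-β target that restrains Smad signalling, had 148 CPM in p63-KO and 55.4 CPM in wild-type cells, and Ccn2, a matricellular gene used as a readout of TGF-β and of YAP, 40.3 CPM in p63-KO and 7.96 CPM in wild-type cells. Of the co-receptors, Rgmb had 34.0 CPM in p63-KO and 15.9 CPM in wild-type cells, while Rgma had 31.5 CPM in p63-KO and 93.9 CPM in wild-type cells and Tgfbr3 21.3 CPM in p63-KO and 50.6 CPM in wild-type cells.

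The antagonists Sostdc1 and Fstl3 were lower, Sostdc1 at 1.15 CPM in p63-KO and 9.85 CPM in wild-type cells and Fstl3 at 1.72 CPM in p63-KO and 6.22 CPM in wild-type cells. Tgfbi, a secreted matrix protein induced by TGF-β, was 7.78-fold lower (5.99 to 10.2), at 0.903 CPM in p63-KO and 7.02 CPM in wild-type cells. The known targets thus did not move in 1 direction. The BMP receptor gene Bmpr1b, at 304 CPM in p63-KO and 181 CPM in wild-type cells, Tsc22d1, at 292 CPM in p63-KO and 155 CPM in wild-type cells, and Ltbp4, at 171 CPM in p63-KO and 204 CPM in wild-type cells, were named for their level and did not reach the threshold.

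**Figure D4:**
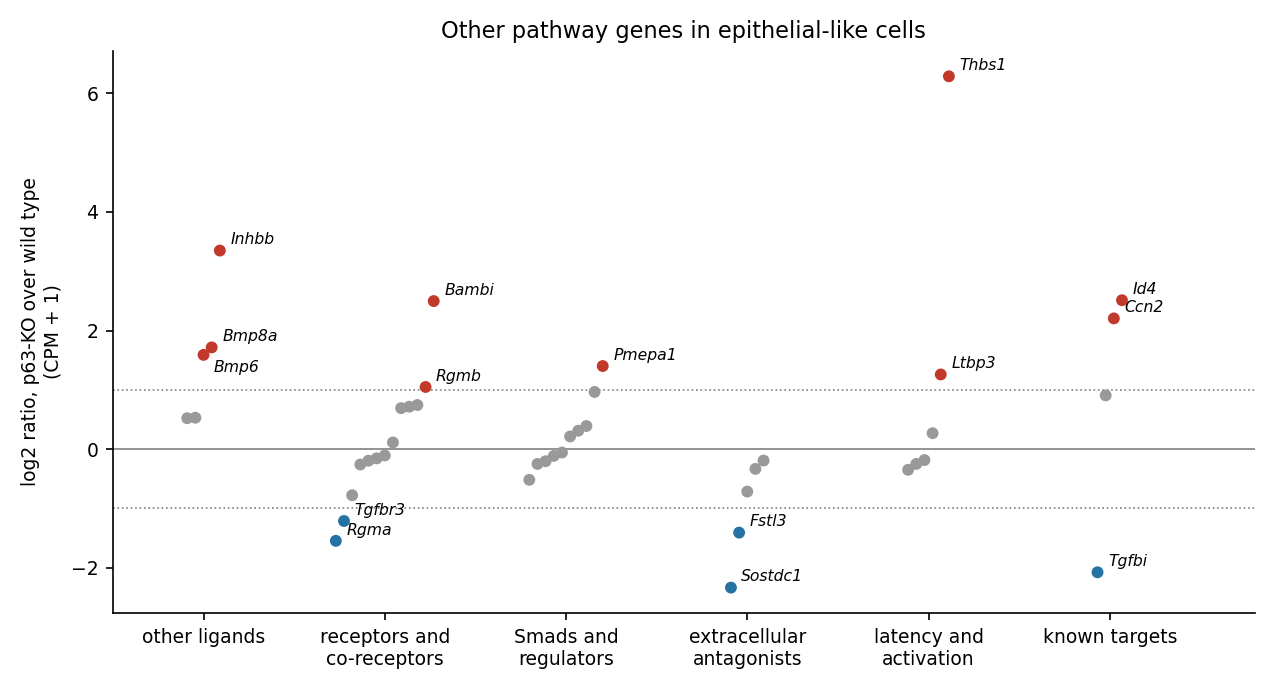
Log2 ratios of CPM, each with 1 added, p63-KO over wild-type epithelial-like cells, for the 43 measured genes of the wider pathway list, by role. Each point is 1 gene, red from a log2 ratio of 1, blue from -1 and grey between. Here 10 genes are red and 5 blue, with Thbs1 highest at 6.29 and Sostdc1 lowest at -2.33.

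In the wild-type layers 38 genes of the same list were measured, of which 2 were higher and 12 lower in suprabasal-like than in basal-like cells. Over all genes 10.4% were higher and 16.4% lower. The median log2 ratio was -0.62 for the list and -0.31 for all genes. The 2 were ligands: Bmp2 had 9.53 CPM in suprabasal-like and 2.25 CPM in basal-like cells, and Bmp6 12.8 CPM in suprabasal-like and 3.68 CPM in basal-like cells. Antagonists made up 4 of the 12, with follistatin (Fst) at 0.319 CPM in suprabasal-like and 10.1 CPM in basal-like cells and Sostdc1 at 1.17 CPM in suprabasal-like and 18.2 CPM in basal-like cells. In the p63-KO library, all 9 antagonists measured were higher in fibroblast-like than in epithelial-like cells. Chrd was at 23.1 CPM in fibroblast-like and 1.03 CPM in epithelial-like cells, and Bmper at 53.3 CPM and 0.625 CPM. To be measured, a gene needed 5 CPM in only 1 of the groups, and Chrd and Bmper reached it in fibroblast-like cells alone. Genes low in epithelial-like cells were counted only where fibroblast-like cells reached that level, so the count of 9 is partly set by this filter. Over the whole list 27 of 55 genes were higher and 9 lower in fibroblast-like cells, beside 19.3% of all genes higher and 20.3% lower.

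Over 24 cell groups of at least 30 cells from both libraries, the members' levels were compared with those of 12016 genes by Pearson correlation of log2(CPM + 1). The groups share libraries and depth, so the values only describe likeness. Most like Bmp7 were Mipol1 (r = 0.92), Clstn1 and Wnt6. Most like Id3 were Plekhg2 (r = 0.90), Itga5 and Peak1. Most like Tgfb2 were Gse1 (r = 0.91), Prickle1 and Elmo1, and most like Tgfb3 was Ror1 (r = 0.90). The closest gene was Creb3l2 for Bmp4, Nampt for Smad7, Ppt2 for Id1, Nfil3 for Id2 and Pank2 for Tgfb1. For Smad6 it was the ribosomal pseudogene Rpl9-ps6. Among the members themselves, Tgfb3 and Bmp4 were most alike (r = 0.79), and Tgfb2 and Bmp7 least (r = -0.40).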

How the data were processed

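Single-cell RNA sequencing was done on 1 p63-KO and 1 wild-type library. The authors deposited raw UMI counts for each gene in each barcode, made by a 10x 3' kit per the labels' protocols. Per the submitters' processing notes, they come from Cell Ranger 7.1.0 on mm10. How genes were annotated, cells called and strand or introns handled is not given in the sources used here. Deposited were 2821 p63-KO barcodes with 86504624 UMIs in all, and 6034 wild-type barcodes with 76472445.

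Cells kept had 500 genes or more, 1000 UMIs or more and no more than 10% of UMIs from mt- genes, which left 2422 p63-KO and 5787 wild-type cells. Doublets were scored by simulated neighbours and removed at 0.8% per 1000 cells, 47 p63-KO and 268 wild-type cells. The scoring called 27% of 100 planted doublets in each library, so doublets remain. Cells of both libraries were clustered together, without integration, on 2000 variable genes, 30 principal components and 20 neighbours at Leiden resolution 1, and epithelial-like cells of each library again at 0.6 (Python 3.11.15, numpy 2.4.6, scipy 1.17.1, pandas 2.3.3, scikit-learn 1.9.0, leidenalg 0.10.2, igraph 0.11.9). A cluster could take the name of a type with 3 or more markers each found in 25% of its cells, and took that with the highest mean detection. An epithelial subcluster needed 3 or more, and no fewer than 50% of the type's markers, each also at 1.25-fold the mean of the subclusters, and took the type with the highest mean log2 ratio over that mean. A first rule of 2-fold over all other cells had left wild-type subcluster 1, with its basal markers, unnamed, and was replaced after marker values, not members' values, were seen.

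Counts were summed over the cells of a group and scaled to CPM. Log2 ratios carry 1 CPM on each side, which understates ratios of low genes, and folds do not. In every comparison, a gene that reached 5 CPM in 1 group alone could be called only as higher in that group. With 1 library per group no test was made. Calls were checked on simulated data. Levels are not compared between genes. Coordinates of genes were taken from GENCODE M21 (mm10). The members and lists were chosen with earlier results of these data known. Named from the wider list were, in each role, up to 4 measured genes past the threshold with the largest ratios and any with at least 200 CPM. In the other comparisons of that list, genes named and subclusters singled out were chosen after their values were seen.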

Additional observations from a re-analysis of the deposited data

Results flagged for a closer look

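The 10 wild-type fibroblast-like cells were left out of every comparison. Their summed counts held 19 UMIs of Tgfb2, 6 of Bmp7, 4 of Id1, 12 of Id2 and 10 of Id3, each above the 3 counts that a value of 0 would allow. The 19 Tgfb2 UMIs were 9.79% of all Tgfb2 UMIs of that library, from cells with 0.0707% of its UMIs.

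Id3 was called lower in cycling-like and higher in ciliated-like cells, which were named by the same markers in both libraries. Its log2 ratio, p63-KO over wild type, was -1.23 in cycling-like cells and 1.06 in ciliated-like cells. The difference between the 2 was not tested. The wild-type ciliated-like value rests on 4 UMIs, and the interval of its fold, 2.25 (0.823 to 8.62), includes no difference.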

How the results depend on the processing

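With 1 library per group no library could be left out, and no p-value was made. No paired analysis was possible because the groups share 1 replicate number only. Each count was recomputed with pseudocounts of 0.5 and 5 CPM, from 1 and 20 CPM, without the 50 most abundant genes, with every cell weighed equally, with doublets kept, and with other cell choices. Settings without single clusters were chosen after seeing the data. For each count that moved by over 1.5 times the cause was not tested, beyond the fewer or more genes measured. The members higher in p63-KO epithelial-like cells were 1 when measured from 20 CPM, against 3, and 2 to 4 otherwise. The member higher in suprabasal-like cells, Id1, fell to 0 with a pseudocount of 5 CPM, with doublets kept, and without suprabasal-like subcluster 2 or basal-like subcluster 3. The members lower there were 5 when measured from 1 CPM, against 3. The members lower in fibroblast-like cells were 1, against 3, when cells were chosen by UMIs of single genes. The median log2 ratio of the pathway list in p63-KO epithelial-like cells stayed between 0.0823 and 0.205 over 15 alternatives. The log2 ratio of Id3 between libraries ran from -0.70 to 0.58, and that of Tgfb3 from 0.19 to 1.97. The 0.58 came from taking all cells with an Epcam or Cdh1 UMI. These were taken whatever their named type, so stromal cells with such a UMI were not kept out.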
